A study of Mus musculus with 8 samples.

Results

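Immediate early genes are genes whose transcription is switched on within minutes of a stimulus, without new protein synthesis. The 10 followed here were Fos, Fosb, Jun, Junb, Atf3, Egr1, Nr4a1, Ier2, Dusp1 and Zfp36, chosen by name as rows of a table of 24988 genes whose Ensembl identifiers map to these symbols, and all 10 were found. The RNA came from adult testis of mice labelled Kpna2-/- (4 libraries, here called knockout) and of mice labelled wild type (4 libraries). Importin alpha proteins such as the product of Kpna2 bind nuclear localization signals of other proteins and bring them into the nucleus. The study asked how gene expression in the knockout testis differs from that in the wild-type testis. The 10 genes were read library by library, since this class of genes can also respond to the handling of a tissue. Both groups are whole testis, so a level is a mean over germ cells and somatic cells, and fewer cells of a type and less RNA per cell cannot be told apart. The labels give no strain, exact age, kind of allele or number of animals, and do not say whether libraries came from separate animals, so the p-values speak of the spread among these 8 libraries, which may be technical.

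Immediate early genes act as the first transcriptional step between a signal at the cell surface and a lasting change of the cell. Kinase cascades activate transcription factors that already sit at their promoters, such as serum response factor with its ternary complex partners and the cyclic AMP response element binding protein CREB. Many of the products are themselves transcription factors, while others switch the signal off, and most of the transcripts are short-lived. Fos and Jun family proteins pair to form AP-1, a dimer that binds DNA through basic leucine zippers. Dissociation of tissue, ischaemia and delays before freezing are known to induce several of them.

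The promoters are shown because Fos, Junb and Zfp36, which stood out together in 1 library, can be compared there for the sites of these factors. Dusp1 is printed beside them, though that library was 1.31 times the next highest for it. RefSeq (GRCm38.p6) gave the 250 bases before the start of 8 of the 10 genes, not of Egr1 and Ier2, which also stood out. Of the 8, 4 are printed 5′ to 3′ on the strand of the gene. They are Fos (chr12:85473640-85473889, plus strand), Junb (chr8:84978749-84978998, minus strand), Zfp36 (chr7:28379229-28379478, minus strand) and Dusp1 (chr17:26508473-26508722, minus strand). Capitals mark TGACG, the core of the CREB site, TGACGTCA, the full palindrome of that site, which contains TGACG, and the CArG box, the site of serum response factor.
Fos: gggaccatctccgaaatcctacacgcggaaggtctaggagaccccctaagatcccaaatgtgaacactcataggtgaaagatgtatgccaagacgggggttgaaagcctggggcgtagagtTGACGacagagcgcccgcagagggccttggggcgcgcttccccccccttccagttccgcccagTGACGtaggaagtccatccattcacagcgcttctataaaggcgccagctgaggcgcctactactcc
Junb: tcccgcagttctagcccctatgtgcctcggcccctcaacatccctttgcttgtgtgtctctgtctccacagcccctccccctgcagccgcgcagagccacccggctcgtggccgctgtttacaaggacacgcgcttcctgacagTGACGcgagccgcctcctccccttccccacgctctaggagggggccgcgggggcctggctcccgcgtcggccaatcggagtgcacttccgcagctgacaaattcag
Zfp36: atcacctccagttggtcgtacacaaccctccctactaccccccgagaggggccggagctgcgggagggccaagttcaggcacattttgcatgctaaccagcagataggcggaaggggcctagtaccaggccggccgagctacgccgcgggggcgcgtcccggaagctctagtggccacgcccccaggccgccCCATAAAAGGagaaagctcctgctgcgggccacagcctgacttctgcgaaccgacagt
Dusp1: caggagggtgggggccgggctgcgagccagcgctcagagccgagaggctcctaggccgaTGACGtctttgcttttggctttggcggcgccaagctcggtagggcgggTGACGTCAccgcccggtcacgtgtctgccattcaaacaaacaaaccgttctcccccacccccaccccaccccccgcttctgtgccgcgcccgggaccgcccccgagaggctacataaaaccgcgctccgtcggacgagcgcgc
Both strands were searched. TGACG was present in 6 of the 8 promoters, those of Fos, Fosb, Junb, Atf3, Nr4a1 and Dusp1, and in 17.8% of 32851 promoter windows of the same length. In Fos it began 129 and 66 bases before the start, and in Junb 106 bases before it. TGACGTCA was present in Dusp1 alone of the 8, beginning 143 bases before the start, against 1.55% of all windows. A CArG box was present in Zfp36 alone, 58 bases before the start, against 1.47% of all windows. The AP-1 site TGANTCA was in 0 of the 8 and in 6.75% of all windows. A match, or the lack of one, describes the letters of the 250-base window only, and bases farther upstream were not searched.

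The libraries held between 31133443 reads, in knockout replicate 3, and 37797812 reads, in wild-type replicate 4, assigned to genes. The unit throughout is CPM, the deposited read count after the authors' scaling, and 1 library's floor of 3 reads corresponds to 0.0786 to 0.0968 CPM, for counting error only. The columns summed to between 990244 and 1025489 CPM, so the library sizes behind the scaling were not these read totals. Kpna2 itself had 15.3, 20.2, 19.4 and 21.7 CPM in the libraries labelled knockout, against 14.0, 15.1, 14.0 and 12.4 CPM in those labelled wild type, so its level goes against the label (log2 fold change 0.44, SE 0.10, limma adjusted p = 0.0079). The labels do not say which part of the gene was deleted, and knockout and wild type below stand for the labels. The 8 spermatid genes of the marker lists summed to between 20456 and 26573 CPM in the libraries labelled knockout, against 23398 to 24726 CPM in those labelled wild type. Knockout replicate 3 had the lowest share of mitochondrial reads, 0.573%, against 0.598% to 0.699% in the other knockout libraries and 0.702% to 0.787% in the wild-type libraries; the part of this share and of depth in the results was not tested.

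1 library, knockout replicate 3, held the highest value of all 8 libraries for 9 of the 10 genes. It was highest in 11.1% of the 22027 genes that averaged 0.5 CPM or more and so entered the test, and in 8 of the 9 immediate early genes that entered it. Fos, Egr1, Ier2, Junb and Zfp36 were more than 1 log2 unit higher there than in any other library. None of the 9 tested genes was called between the groups when all libraries were used, although 16.9% of all tested genes were called (limma, Benjamini-Hochberg adjusted p below 0.05). In the other 3 knockout libraries, 8 of the 10 genes averaged below the wild-type mean, for Fos, Junb, Egr1, Zfp36 and Nr4a1 by less than the wild-type SD. This count leaves out the library in which the genes were high and keeps every wild-type library, which lowers the knockout side. No share over all tested genes was taken for it.

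**Figure D1:**
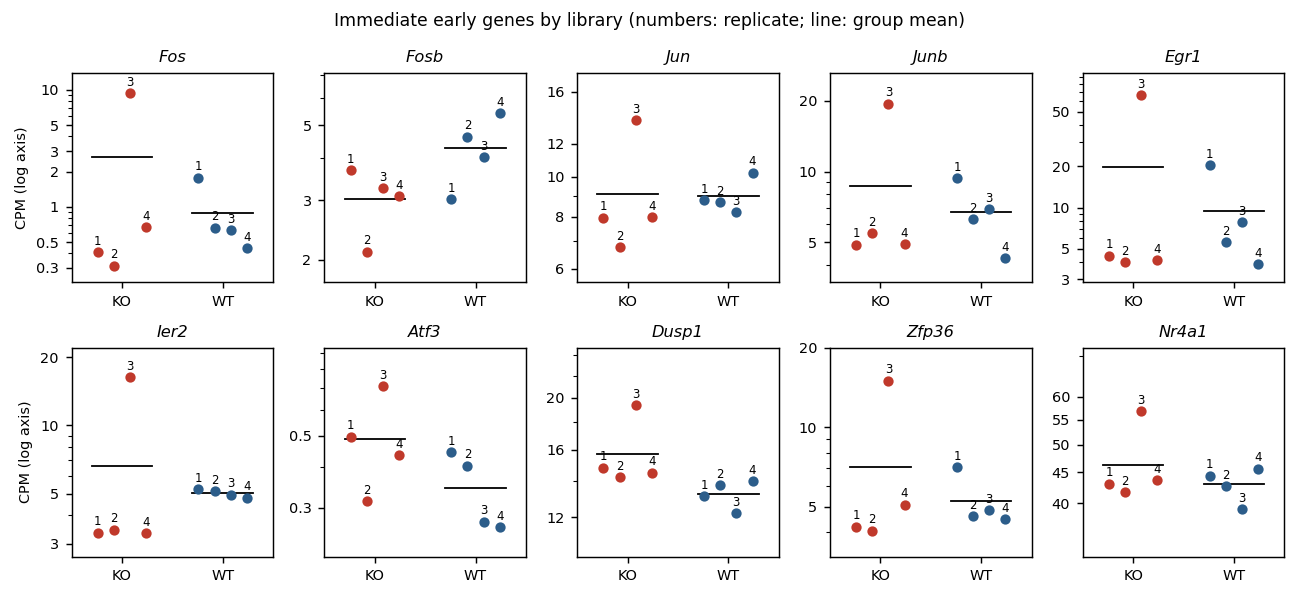
CPM on log axes for the 10 immediate early genes, with a panel per gene, points for single libraries numbered by replicate, and lines for group means (KO, labelled knockout; WT, labelled wild type; n = 4 each). Knockout replicate 3 is the highest point in every panel but that of Fosb, and its Egr1 value is 66.6 CPM, while the remaining 7 libraries span 3.85 to 20.4 CPM.

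Fos (ENSMUSG00000021250, chromosome 12, 85473890 to 85477273 in GRCm38) encodes the AP-1 subunit c-Fos, whose mRNA is among the fastest to be induced and to decay. It had 0.409, 0.315, 9.36 and 0.669 CPM in knockout replicates 1 to 4, against 1.78, 0.664, 0.634 and 0.445 CPM in wild-type replicates 1 to 4. These stand for 14, 11, 290 and 23 reads in the knockout libraries, against 60, 23, 21 and 17 reads in the wild-type libraries. Knockout replicate 3 was 5.26 times the next highest library, wild-type replicate 1, and the groups overlapped. The knockout mean was 2.69 ± 4.45 CPM, against 0.881 ± 0.607 CPM in wild type (SD, n = 4 each), a difference smaller than the spread (log2 fold change 0.40, SE 0.60, limma adjusted p = 0.71). On the recovered reads the log2 fold change of Fos was 1.59 with edgeR (adjusted p = 0.25) and 1.61 with DESeq2 (no p given). Without knockout replicate 3 the knockout mean was 0.464 ± 0.184 CPM (n = 3), below the wild-type mean.

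Fosb (ENSMUSG00000003545, chromosome 7, 19302696 to 19310051), a second Fos family subunit of AP-1, was the exception among the 10. It had 3.68, 2.12, 3.26 and 3.08 CPM in the knockout libraries, against 3.03, 4.62, 4.01 and 5.42 CPM in the wild-type libraries. Wild-type replicate 4 was highest, knockout replicate 3 lay within its group, and wild-type replicate 1, the highest wild-type library for Fos, was the lowest of its group. The means were 3.04 ± 0.661 CPM in knockout and 4.27 ± 1.01 CPM in wild type (SD, n = 4 each). The log2 fold change was -0.43 (SE 0.17, limma adjusted p = 0.11, unadjusted p = 0.026 from the same model). Without wild-type replicate 1 the call was lower in knockout, at -0.57 with limma adjusted p = 0.041.

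Jun (ENSMUSG00000052684, chromosome 4, 95049034 to 95052222) encodes c-Jun, the partner that lets Fos proteins bind DNA. It had 7.97, 6.78, 13.7 and 7.97 CPM in the knockout libraries, against 8.78, 8.69, 8.21 and 10.2 CPM in the wild-type libraries. Knockout replicate 3 alone exceeded the wild-type libraries, and the other 3 knockout libraries all lay below every wild-type library. The means were 9.10 ± 3.11 CPM in knockout and 8.98 ± 0.866 CPM in wild type (SD, n = 4 each; log2 fold change -0.03, SE 0.16, limma adjusted p = 0.94).

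Junb (ENSMUSG00000052837, chromosome 8, 84974484 to 84978718) encodes a Jun family subunit that competes with c-Jun for partners. It had 4.88, 5.46, 19.5 and 4.92 CPM in the knockout libraries, against 9.41, 6.27, 6.91 and 4.27 CPM in the wild-type libraries. The value in knockout replicate 3 was 2.07 times the next highest, again wild-type replicate 1, and the groups overlapped. The means were 8.68 ± 7.20 CPM in knockout and 6.71 ± 2.12 CPM in wild type (SD, n = 4 each), and the log2 fold change of 0.14 (SE 0.35, limma adjusted p = 0.83) was smaller than the spread. Without knockout replicate 3 the knockout mean was 5.09 ± 0.328 CPM (n = 3).

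Atf3 (ENSMUSG00000026628, chromosome 1, 191170296 to 191218039) encodes a stress-induced repressor of the same leucine zipper class. Its level was low, with 0.496, 0.315, 0.710 and 0.437 CPM in the knockout libraries, against 0.445, 0.404, 0.272 and 0.262 CPM in the wild-type libraries. Knockout replicate 3 was highest, and the groups overlapped. Its mean over all libraries, 0.418 CPM, kept it out of the test. With no filter its log2 fold change was 0.22 (SE 0.15, limma adjusted p = 0.36).

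Egr1 (ENSMUSG00000038418, chromosome 18, 34859823 to 34864984) encodes a zinc finger transcription factor that is a direct target of serum response factor. It had 4.47, 4.00, 66.6 and 4.16 CPM in the knockout libraries, against 20.4, 5.57, 7.88 and 3.85 CPM in the wild-type libraries. In reads these were 153, 140, 2062 and 143 in the knockout libraries, against 688, 193, 261 and 147 in the wild-type libraries. Knockout replicate 3 was 15.8 times the mean of the other 3 knockout libraries, and wild-type replicate 1 was 3.54 times the mean of the other 3 wild-type libraries. The means were 19.8 ± 31.2 CPM in knockout and 9.43 ± 7.51 CPM in wild type (SD, n = 4 each), with a log2 fold change of 0.15 (SE 0.71, limma adjusted p = 0.92). The log2 fold change of Egr1 was 1.06 with edgeR (adjusted p = 0.42) and 1.07 with DESeq2 (no p given). Apart from knockout replicate 3, the knockout libraries lay close together, at 4.21 ± 0.235 CPM (n = 3).

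Nr4a1 (ENSMUSG00000023034, chromosome 15, 101254269 to 101274795) encodes the orphan nuclear receptor Nur77, known in Leydig cells as an activator of steroid synthesis genes. It had 43.1, 41.8, 56.8 and 43.7 CPM in the knockout libraries, against 44.4, 42.7, 39.1 and 45.6 CPM in the wild-type libraries. Only knockout replicate 3 lay outside the range of the wild-type libraries on the high side, and the means were 46.3 ± 7.02 CPM in knockout and 43.0 ± 2.84 CPM in wild type (SD, n = 4 each; log2 fold change 0.10, SE 0.09, limma adjusted p = 0.50). Of 8 Leydig cell markers tested, Star, Lhcgr, Cyp11a1 and Cyp17a1 were lower, Hsd3b1 was higher and 3 were not called by limma, beside 8.32% of all tested genes called lower and 8.62% called higher. Their summed level was 746 to 1164 CPM in the knockout libraries, against 1123 to 1324 CPM in the wild-type libraries, and its part in the Nr4a1 values was not tested.

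Ier2 (ENSMUSG00000053560, chromosome 8, 84661331 to 84662852) encodes a small nuclear protein of the immediate early class. It had 3.36, 3.46, 16.3 and 3.35 CPM in the knockout libraries, against 5.25, 5.11, 4.95 and 4.80 CPM in the wild-type libraries. Knockout replicate 3 was the highest of all libraries, and the other 3 knockout libraries were below every wild-type library. The means were 6.62 ± 6.47 CPM in knockout and 5.03 ± 0.198 CPM in wild type (SD, n = 4 each; log2 fold change 0.02, SE 0.36, limma adjusted p = 0.98). Leaving out knockout replicate 3 turned this into a call of lower in knockout, with a log2 fold change of -0.51 (SE 0.11, limma adjusted p = 0.0059), and the knockout mean was then 3.39 ± 0.0632 CPM (n = 3).

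Dusp1 (ENSMUSG00000024190, chromosome 17, 26505590 to 26562128) encodes a phosphatase that switches off MAP kinases and so limits the induction of the other genes. It had 14.8, 14.2, 19.4 and 14.5 CPM in the knockout libraries, against 13.1, 13.8, 12.2 and 14.0 CPM in the wild-type libraries. Every knockout library was above every wild-type library, and the groups did not overlap for this gene alone of the 10 and, in either direction, for 20.9% of all tested genes. The means were 15.7 ± 2.45 CPM in knockout and 13.3 ± 0.809 CPM in wild type (SD, n = 4 each). The log2 fold change of 0.23 (SE 0.10, unadjusted p = 0.033) did not pass the threshold (limma adjusted p = 0.13), and without knockout replicate 3 it was 0.13 (limma adjusted p = 0.33).

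Zfp36 (ENSMUSG00000044786, chromosome 7, 28376784 to 28380253) encodes tristetraprolin, which binds AU-rich elements and speeds the decay of short-lived mRNAs. It had 4.20, 4.06, 15.0 and 5.09 CPM in the knockout libraries, against 7.06, 4.62, 4.86 and 4.48 CPM in the wild-type libraries. As for Junb, wild-type replicate 1 was second, and the value in knockout replicate 3 was 2.13 times as high; the groups overlapped. The means were 7.09 ± 5.30 CPM in knockout and 5.26 ± 1.21 CPM in wild type (SD, n = 4 each; log2 fold change 0.21, SE 0.30, limma adjusted p = 0.69), and without knockout replicate 3 the knockout mean was 4.45 ± 0.559 CPM (n = 3).

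Per kilobase of exon, the order of levels in the wild-type libraries was Nr4a1, Dusp1, Ier2, Junb, Jun, Egr1, Zfp36, Fosb, Fos and Atf3. Nr4a1 averaged 13.2 ± 2.00 CPM per kb in knockout and 12.2 ± 0.811 CPM per kb in wild type, and Atf3, the lowest, 0.227 ± 0.0768 CPM per kb in knockout and 0.161 ± 0.0430 CPM per kb in wild type (SD, n = 4 each). In wild type, the steps between Nr4a1 and Dusp1, between Dusp1 and Ier2 and between Zfp36 and Fosb exceeded the sum of both SDs. The other 6 neighbouring pairs in that order did not differ beyond their spread.

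Of the 9 tested genes, 0 were higher and 0 lower in knockout by limma, against 8.62% of all tested genes called higher and 8.32% called lower. Fosb and Dusp1 had an unadjusted limma p below 0.05, as 30.2% of all tested genes did. On the recovered reads, the quasi-likelihood test of edgeR called 0 of them and 16.8% of all genes, and DESeq2 called 0 of the 7 for which it gave a p and 18.1% of all genes. It withheld a p-value for Fos and Egr1, as it does where a single count lies far from its group, and for 7 of 22027 genes (0.0318%) in all. The median log2 fold change of the 9 genes was 0.14, beside -0.01 over all tested genes.

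**Figure D2:**
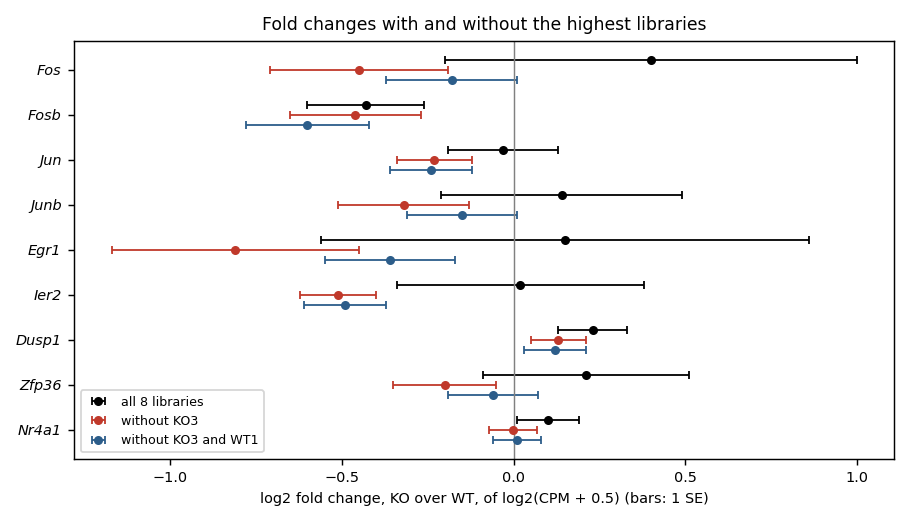
Log2 fold changes of the 9 tested genes, knockout over wild type on the log2(CPM + 0.5) scale, with bars of 1 SE, from all 8 libraries, without knockout replicate 3, and without both knockout replicate 3 and wild-type replicate 1. With all libraries Egr1 lies at 0.15 and Ier2 at 0.02, and without knockout replicate 3 they lie at -0.81 and -0.51.

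The calls depended on these libraries. Without knockout replicate 3, Ier2 alone of the 9 was called, lower in knockout, when 14.7% of all tested genes were called and 7.19% were lower. Without wild-type replicate 1, Fosb alone was called, lower, when 12.7% of all tested genes were called and 6.05% were lower. With both left out, Fosb (log2 fold change -0.60, limma adjusted p = 0.047) and Ier2 (-0.49, limma adjusted p = 0.021) were called lower and none higher, when 11.6% of all tested genes were called and 5.68% were lower. Leaving out both was chosen after the values were seen.

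Knockout replicate 3 stood at least 1 log2 unit above every other library in 10 of 22027 tested genes (0.0454%). Of these, 5 were Fos (by 2.11), Egr1 (1.68), Ier2 (1.55), Zfp36 (1.04) and Junb (1.01), and 3 more were immediate early genes outside the 10. Btg2, an antiproliferative gene of early response, had 5.14, 4.83, 24.2 and 3.93 CPM in the knockout libraries, against 5.85, 4.48, 4.77 and 3.51 CPM in the wild-type libraries. Ccn1, a secreted matrix protein gene, had 1.81, 1.95, 7.52 and 1.46 CPM in the knockout libraries, against 2.11, 1.07, 0.875 and 1.21 CPM in the wild-type libraries. Egr2, a relative of Egr1, had 0.117, 0.143, 2.16 and 0.146 CPM in the knockout libraries, against 0.712, 0.202, 0.453 and 0.341 CPM in the wild-type libraries. The remaining 2 genes were Ly6d and the predicted gene Gm8210. Each of the other 7 libraries stood out in this way in 0 to 8 genes, none of them among the 9.

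Set against the other 3 knockout libraries, the excess of knockout replicate 3 was 3.83 log2 units for Egr1 and 3.37 for Fos, the first and second largest of 22027 genes. It was 2.11 for Ier2, 1.84 for Junb, 1.65 for Zfp36 and 0.82 for Jun, and between 0.15 and 0.41 for Fosb, Nr4a1, Dusp1 and Atf3. Wild-type replicate 1 was the highest of the wild-type libraries for 6 of the 10 genes, a count for which no share over all tested genes was taken. For Ier2 it had 5.25 CPM, against 5.11 CPM in wild-type replicate 2, and for Atf3 0.445 against 0.404 CPM. The excess of wild-type replicate 1 over the other 3 was 1.79 for Egr1, 1.08 for Fos, 0.67 for Junb and 0.55 for Zfp36. Of the 22027 genes, 12 (0.0545%) had both an excess of at least 1 in knockout replicate 3 and of at least 0.5 in wild-type replicate 1. Among them were Egr1, Fos, Junb and Zfp36, with Ccn1 and Egr2 of the other immediate early genes. The rest of the 12 were in neither list. Both libraries were taken because the 10 genes were high in them, and the limits were not planned. The place of these genes among the 12 therefore restates that choice in part.

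**Figure D3:**
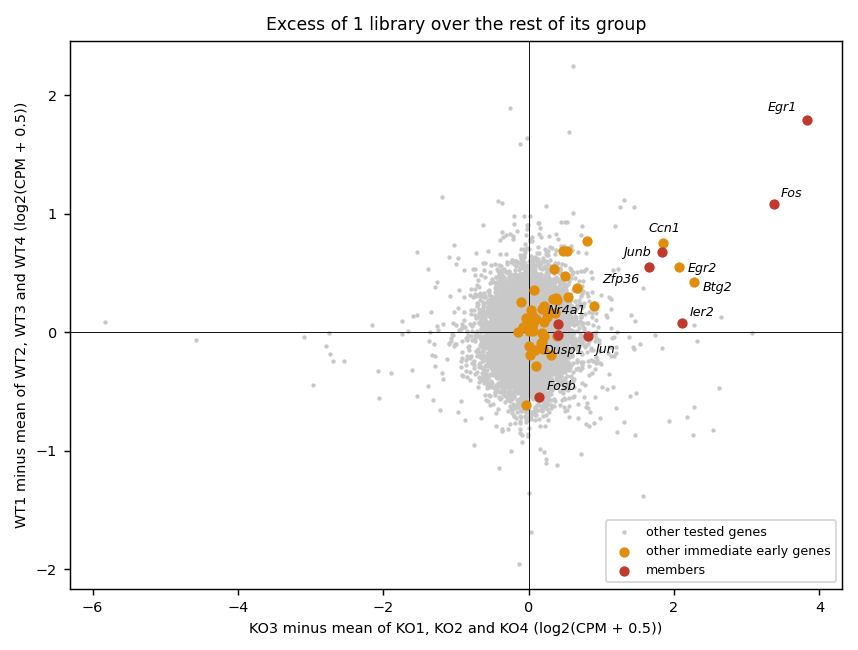
Each point is 1 of 22027 tested genes, with the difference of knockout replicate 3 from the mean of the other 3 knockout libraries on the x axis and that of wild-type replicate 1 from the mean of the other 3 wild-type libraries on the y axis, both in log2(CPM + 0.5). Egr1 (3.83 and 1.79) and Fos (3.37 and 1.08) lie at the upper right, away from the cloud of other genes.

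The mean over the 10 genes, as log2(CPM + 0.5) minus the wild-type mean, was -0.23, -0.38, 1.22 and -0.21 in knockout replicates 1 to 4, against 0.29, -0.05, -0.07 and -0.16 in wild-type replicates 1 to 4. The other immediate early genes moved less, with 0.33 in knockout replicate 3 and between -0.06 and 0.00 in the other knockout libraries, against 0.12 in wild-type replicate 1 and between -0.06 and -0.03 in the other wild-type libraries. Knockout replicate 3 was highest in 18 of the 45 tested. The 22 kinases and transcription factors that act upstream averaged between -0.07 and 0.00 in the knockout libraries, and none was called in either direction by limma (4 had an unadjusted p below 0.05). Of 11 tested relatives of AP-1, 0 were called by limma and 1 had an unadjusted p below 0.05. Neither edgeR nor DESeq2 called any of these upstream factors or AP-1 relatives.

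**Figure D4:**
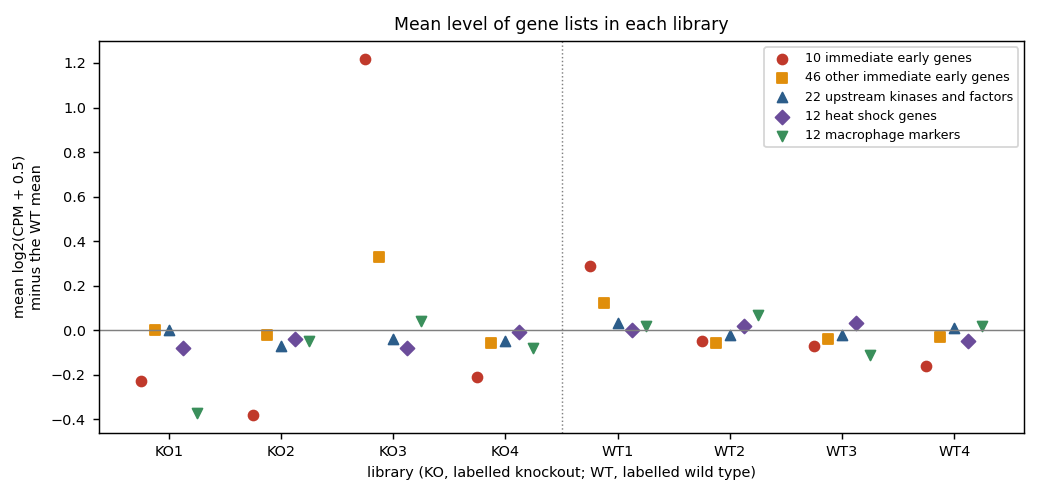
Mean log2(CPM + 0.5) of each gene list in each library, minus its mean over the wild-type libraries, for the 10 immediate early genes, 46 others, 22 upstream kinases and factors, 12 heat shock genes and 12 macrophage markers. The 10 genes reach 1.22 in knockout replicate 3, while the heat shock genes lie at -0.08 there.

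Of 47 other immediate early genes listed, 46 were measured and 45 tested, of which 8 were higher and 2 lower in knockout, beside 8.62% and 8.32% of all tested genes, and 17 had an unadjusted p below 0.05, beside 30.2% (limma). The higher ones were Jund, a Jun family subunit, with 48.9 ± 4.09 CPM in knockout and 34.8 ± 3.04 CPM in wild type (log2 fold change 0.49, limma adjusted p = 0.00046), and Egr3, Klf4, Nfkbiz, Dusp4, Nr4a3, Dusp5 and Cebpb. Egr3, a zinc finger relative of Egr1, had 44.1 ± 4.51 CPM in knockout and 32.9 ± 1.81 CPM in wild type, and Klf4, a zinc finger factor abundant in spermatids, 189 ± 13.0 CPM in knockout and 152 ± 5.25 CPM in wild type (SD, n = 4 each). Nfkbiz, a nuclear regulator of NF-kappa-B, had 9.64 ± 1.35 CPM in knockout and 6.14 ± 0.595 CPM in wild type. In Egr3, Klf4 and Dusp4 the highest library was knockout replicate 1, not 3. Cebpb, a leucine zipper factor of the acute phase, had 3.39 CPM in knockout replicate 3 and 1.59 ± 0.0915 CPM in the other 3 knockout libraries, against 1.12 ± 0.185 CPM in wild type, and it was not called without that library (limma adjusted p = 0.10). Cebpb also lost its call without knockout replicate 1, without each wild-type library, with a pseudocount of 2 CPM (limma adjusted p = 0.056) and with scaling by read totals (limma adjusted p = 0.052), and Dusp5 lost its call without knockout replicate 3 and without wild-type replicate 1, 2 or 3.

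The lower ones were Npas4, an activity-induced neuronal factor, with 1.04 ± 0.0930 CPM in knockout and 1.87 ± 0.209 CPM in wild type (log2 fold change -0.62, limma adjusted p = 0.0035), and Nfkbia, the inhibitor of NF-kappa-B, with 10.1 ± 0.285 CPM in knockout and 13.5 ± 1.43 CPM in wild type (-0.39, limma adjusted p = 0.0069). The 6 most abundant genes that were not called were Arc, Per1, Btg1, Csrnp1, Sik1 and Errfi1. Arc, known from synapses, had 236 ± 14.5 CPM in knockout and 248 ± 16.7 CPM in wild type. Without knockout replicate 3 and wild-type replicate 1, 5 were called higher (Jund, Egr3, Klf4, Nfkbiz and Dusp4) and 1 lower (Npas4).

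**Figure D5:**
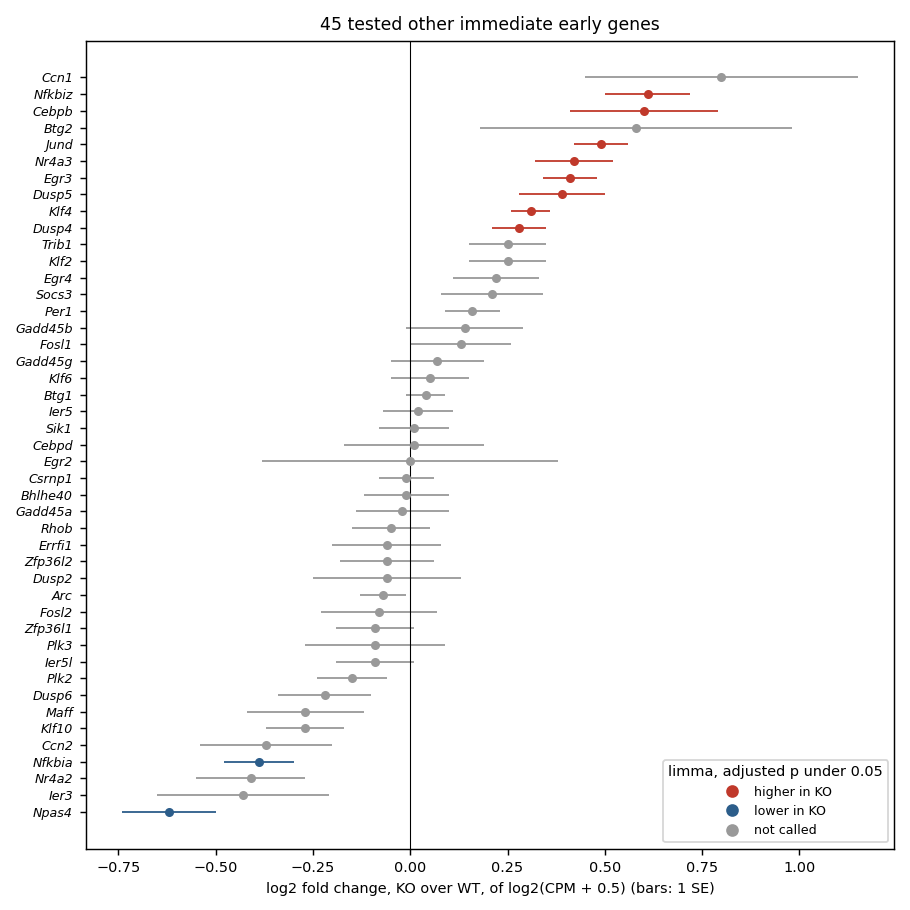
Log2 fold changes, knockout over wild type on the log2(CPM + 0.5) scale with bars of 1 SE, of the 45 tested other immediate early genes, ordered by value and coloured by the limma call. 8 genes are coloured as higher and 2 as lower, and Ccn1 and Btg2, which were not called, have wide bars at the upper end.

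Profiles most like the mean profile of the 10 genes were sought among 575 genes averaging 5 CPM or more with a wide enough range. By root-mean-square difference of centred log2 values over the 8 libraries, the nearest outside the 10 were Trf (0.27), Mir6236 (0.29), Errfi1 (0.29), Nsdhl (0.31) and Gcsh (0.31). Trf, the transferrin gene, had 37.2 CPM in knockout replicate 3. Of the 10 genes themselves, only Jun, Junb, Egr1, Ier2 and Zfp36 met these limits, and each is part of the mean. Among them Zfp36 lay nearest the mean, at 0.11, and Egr1 farthest from it, at 0.86.

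Lists of heat shock, hypoxia, macrophage, endothelial and blood genes were read in the same libraries. Their part in the values of knockout replicate 3 was not tested. Counts called in them stand beside 8.62% of all tested genes called higher, 8.32% called lower and 30.2% with an unadjusted p below 0.05 (limma). Of 12 heat shock genes, Bag3 and Hspa1b were lower in knockout and none higher, and their mean in knockout replicate 3 was -0.08, within the range of -0.08 to -0.01 of the knockout libraries. Of 8 measured hypoxia genes, limma called 0, as did edgeR and DESeq2, while 5 had an unadjusted limma p below 0.05. Macrophage markers summed to 86.8 to 116 CPM in the knockout libraries, with the highest value in replicate 3, against 101 to 114 CPM in the wild-type libraries, and only Cx3cr1 of 12 was called, lower, a call lost without any single library but wild-type replicate 3, and with a pseudocount of 0.1 CPM, a filter at 2 CPM or median ratio scaling (limma adjusted p = 0.05 to 0.051). Endothelial markers summed to 35.6 to 44.5 CPM in the knockout libraries, against 43.0 to 49.4 CPM in the wild-type libraries, with Tek and Vwf of 10 lower. DESeq2 also called Cldn5, higher in knockout, which limma and edgeR did not, beside 18.1% of all genes called by DESeq2 in either direction. Haemoglobin and other blood genes summed to 31.4 CPM in knockout replicate 3, the lowest of all libraries, against 34.1 to 50.6 CPM in the wild-type libraries, and Hba-a1 of 6 was lower. With knockout replicate 3 and wild-type replicate 1 both left out, Hba-a1 (limma adjusted p = 0.058) and Hspa1b (limma adjusted p = 0.054) lost their calls.

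The counts of called markers of other cell types stand beside 8.62% of all tested genes called higher and 8.32% called lower. Fibroblast markers summed to 55.5 to 97.4 CPM in the knockout libraries, against 142 to 178 CPM in the wild-type libraries, and Col1a1, Col1a2, Col3a1, Dcn and Lum of 8 were lower. Acta2, Myh11, Actg2, Cnn1 and Myl9 of 8 myoid and smooth muscle markers were lower, as were Sox9 and Rhox5 of 10 Sertoli cell markers. Of 8 listed epididymis and mesothelium markers, 4 were measured, and the epididymal genes Lcn5, Lcn8, Lcn9 and Defb20 were not among them. Upk3b, Krt19 and Msln were lower, and Wt1, which also stands among the Sertoli cell markers, was not called. Of the 8 spermatid genes, limma called 0, as did edgeR and DESeq2, while 1 had an unadjusted limma p below 0.05. The call of Upk3b was lost without knockout replicate 4 and without wild-type replicate 1, 3 or 4, those of Krt19 and Msln without the same libraries and without knockout replicate 3, and that of Rhox5 without knockout replicate 3 or 4 and without each wild-type library. Upk3b was also not called by DESeq2, nor Rhox5 by edgeR, with a pseudocount of 0.1 CPM, a filter at 2 CPM, median ratio scaling or scaling by read totals, nor Msln with a pseudocount of 0.1 CPM. The part of these markers in the values of the immediate early genes was not tested.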

How the data were processed

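RNA of adult testis was extracted with TRIzol, treated with DNase and made into TruSeq libraries, per the labels' protocols. Trimmomatic, Subread, featureCounts and the build GRCm39 are named in the submitters' processing notes; the sources used here give no versions, annotation release or strand setting, and genes that overlap or lie antisense are uncertain. The authors deposited a scaled signal per gene and library, named CPM in the file. The columns named control were taken as wild type and those named kpn as knockout, by number. Every value was a whole multiple, within 0.01, of the smallest value above 0 in its column (100% of values), which gave back whole reads.

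The 10 genes and the other lists were chosen with earlier results of these data known. The test was limma 3.58.1 in R 4.3.3, with a variance trend, on log2(CPM + 0.5) of the 22027 genes that averaged 0.5 CPM or more, two-sided, with Benjamini-Hochberg adjustment over all of them and a threshold of 0.05. Fold changes on this scale understate the change of low genes. All 10 genes were named, as were the called members of each other list, the 6 most abundant uncalled other immediate early genes and the 5 most similar profiles; Btg2, Ccn1, Egr2, Ly6d and Gm8210 were named after their values were seen. The alternatives were edgeR 4.0.16 and DESeq2 1.42.0 on the recovered reads, other pseudocounts, filters and scalings, a replicate block and each library left out. The scripts were tested on simulated data. Positions and exon lengths came from GENCODE M21 on GRCm38, another build than the authors used, and were not converted. No pair of libraries agreed within sampling noise (chi-square per degree of freedom at least 4.63).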

Additional observations from a re-analysis of the deposited data

Results flagged for a closer look

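In a group of 4 libraries, a value was singled out when its gap to the nearest other library, over the range of the group, exceeded Dixon's critical value at the 95% level. Single genes were read in CPM, and the mean over the 10 genes in log2 units. Chance alone singles out about 1 in 20 groups where values are normally distributed, which CPM values need not be. Of 126 groups examined, 21 were singled out, 14 of them by knockout replicate 3. The groups include genes taken in because knockout replicate 3 was high in them (Btg2, Ccn1, Egr2, Ly6d and Gm8210) or because their profile was like that of the 10 genes (Trf, Mir6236, Errfi1, Nsdhl and Gcsh), and the mean over the 10 genes itself. For these the result restates the choice, and the totals cannot be set against chance.

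Among the 10 immediate early genes, knockout replicate 3 stood apart from the other knockout libraries for Fos at 9.36 CPM, Junb at 19.5 CPM, Egr1 at 66.6 CPM, Ier2 at 16.3 CPM, Dusp1 at 19.4 CPM, Zfp36 at 15.0 CPM and Nr4a1 at 56.8 CPM, and for the mean over the 10 genes, at 1.22 log2 units above the wild-type mean. Wild-type replicate 1 stood apart from the other wild-type libraries for Fos at 1.78 CPM and Zfp36 at 7.06 CPM.

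Outside the 10, knockout replicate 3 stood apart for Btg2 at 24.2 CPM, Ccn1 at 7.52 CPM, Egr2 at 2.16 CPM, Cebpb at 3.39 CPM, Gcsh at 18.6 CPM and Mir6236 at 138 CPM. Wild-type replicate 4 stood apart as the highest of its group for Vwf at 18.7 CPM, Per1 at 205 CPM and Mir6236 at 109 CPM. Wild-type replicate 3 was the lowest of its group for Hspa1b at 3.47 CPM, and wild-type replicate 2 the highest for Ly6d at 0.462 CPM.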

How the results depend on the processing

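Over 19 alternatives the number of all genes called lay between 2548 and 4073, and 0 of the 10 genes were called higher under any of them. The scaling named TMM was computed on the library sizes implied by the deposited values. It gave every library a factor of 1, so that alternative only repeated the main fit. The number called lower, 0 with all libraries, lay between 0 and 1 with single libraries left out (1 without knockout replicate 3 and 1 without wild-type replicate 1) and was 2 with both left out. Other immediate early genes called higher numbered 8, between 6 and 9 with single libraries left out and 5 with both left out. Those called lower numbered 2, between 2 and 3 with single libraries left out and 1 with both left out. With a filter at 2 CPM the number was 1, because Npas4, with a mean of 1.46 CPM, was then not tested. With both left out, log2 fold changes took the other sign for Fos (-0.18), Junb (-0.15), Egr1 (-0.36), Ier2 (-0.49), Zfp36 (-0.06) and Sik1 (-0.08). With edgeR and with DESeq2, values were higher than with limma for Fos (1.59 and 1.61), Egr1 (1.06 and 1.07), Junb (0.36 and 0.37), Ier2 (0.39 and 0.40) and Zfp36 (0.42 and 0.43), none of them called. Jun was at 0.01 with edgeR and 0.02 with DESeq2, and Egr2 at -0.26 with a pseudocount of 0.1 CPM and at -0.0047 with scaling by read totals. With single libraries left out, values that changed sign ranged over -0.45 to 0.75 for Fos, -0.23 to 0.09 for Jun, -0.32 to 0.31 for Junb, -0.81 to 0.60 for Egr1, -0.51 to 0.20 for Ier2, -0.20 to 0.39 for Zfp36, -0.0026 to 0.14 for Nr4a1, -0.06 to 0.04 for Csrnp1, -0.06 to 0.09 for Sik1, -0.22 to 0.05 for Errfi1, -0.05 to 0.23 for Trf, -0.29 to 0.02 for Mir6236, -0.48 to 0.005 for Nsdhl and -0.12 to 0.19 for Egr2. The cause was not tested. Same-numbered libraries did not deviate together (correlations of -0.031 to 0.039), and with the replicate number as a block 3446 genes were called, 0 of them among the 10. Leaving out both libraries and scaling by read totals were chosen after seeing the data. Depth limits Fos and Atf3, which had few reads in most libraries.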
